A study of Mus musculus with 14 samples.

Results

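The genes described here encode the subunits of oxidative phosphorylation, in a nuclear set and a mitochondrial set that were chosen by symbol. The mitochondrial set took symbols starting with mt-Nd, mt-Co, mt-Cytb or mt-Atp. The nuclear set took Nduf a, b, c, s or v plus digits, Sdh a to d, and symbols starting with Uqcr, Cox4, Cox5, Cox6, Cox7 or Atp5. A mean normalised count of at least 10 was required in a table, so that 10 of 13 mitochondrial rows and 78 of 83 nuclear rows were members in each table, of 43472 genes in all. In all, 87 genes were members in both, 10 of them mitochondrial and 77 nuclear. Within the nuclear set of replicates 2 to 4, 36 genes were assigned by name to complex I, 4 to complex II, 8 to complex III, 13 to complex IV and 17 to complex V. Ndufa4 was counted with complex I for its name only. A few members are no subunits of the mature complexes: Atp5s and Atp5sl are factors named for ATP synthase, and Cox7a2l takes part in joining complexes into supercomplexes. Atp5l-ps2, a member in the table of replicate 1 only, is a pseudogene.

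The samples were primary fibroblasts grown from the tail tips of C57BL/6 mice and scratched as a monolayer, a cell culture model of a wound. AMG-treated cells received an autologous micrograft extract, the soluble, filtered fraction of minced mouse skin without its cells, diluted in growth medium, and Untreated cells received none. There were 14 libraries: replicate 1 was collected at 1, 5, 12 and 24 h with 1 library per treatment and time, and replicates 2, 3 and 4 at 5 h only. Replicate 1 was deposited in a first table of 8 libraries and replicates 2 to 4 in a second of 6, each scaled by itself, so levels were compared only within a table. All 10 fibroblast markers, led by Fn1, were detected, and their summed level was 13960 to 52865 CPM (reads scaled to a common library total). Summed markers reached at most 423 CPM for skeletal muscle, 37.5 for keratinocytes, 82.4 for leukocytes, 111 for adipocytes and 0.511 for red blood cells. Acta1 was the most abundant muscle marker, and Krt1, Hbb-bt, Cidec and Lep had no read in any library.

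Oxidative phosphorylation passes electrons through complexes I to IV of the inner mitochondrial membrane and uses the resulting proton gradient to make ATP at complex V. Most subunits are encoded by nuclear genes, translated in the cytosol and imported. The mitochondrial genome encodes the core membrane subunits of complexes I, III, IV and V, and complex II has none of its own there. Its genes are read from both strands as long precursors that are cut into mRNAs, with mt-Nd6 the only mRNA on the light strand. Many nuclear subunit genes carry promoter sites for NRF1, the ETS factor GABP or YY1.

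Reading the mitochondrial set requires the sequences, because the nuclear genome carries near-identical copies of mitochondrial DNA. The deposited counts kept only reads of 50 bases that aligned to a single place, so each mitochondrial mRNA was searched for 50-base windows that also occur in another annotated transcript. The first 60 bases of mt-Co2, at chrM:7013-7072 on the plus strand of GRCm38, and of the nuclear copy Gm28661 show the extreme case. Capitals mark identical bases, and all of those shown were identical.
mt-Co2: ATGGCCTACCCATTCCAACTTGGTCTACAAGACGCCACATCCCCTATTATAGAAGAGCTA
Gm28661: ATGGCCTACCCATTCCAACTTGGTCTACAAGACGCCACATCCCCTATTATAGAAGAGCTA
The identity ran over 681 of the 684 bases of mt-Co2. In mt-Nd4, a copy covered the first 876 of 1378 bases and then ended. The last 30 shared bases and the next 30 of mt-Nd4, at chrM:11013-11072 on the plus strand, are set beside the end of Gm28439, with the shared bases in capitals.
mt-Nd4: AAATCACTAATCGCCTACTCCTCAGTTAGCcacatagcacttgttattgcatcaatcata
Gm28439: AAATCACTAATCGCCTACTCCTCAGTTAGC

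The level assigned to a mitochondrial mRNA fell in 2 groups that differed in this sharing. More than 97% of windows were shared in 5 mRNAs: 100% in mt-Co2, 99.9% in mt-Co3, 99.5% in mt-Atp6, 98.8% in mt-Nd4l and 98.0% in mt-Nd3. Their mean normalised counts in replicates 2 to 4 were 3.23, 4.71, 23.6, 0 and 14.1. These are core subunits of cytochrome c oxidase, ATP synthase and complex I. In the other 8 mRNAs 0 to 62.2% of windows were shared, and mean normalised counts ran from 284 for mt-Nd6 to 40115 for mt-Cytb. Per kb of transcript, mt-Cytb had 35066 normalised counts, mt-Nd1 24837, mt-Co1 23071, mt-Nd2 10736, mt-Nd4 9847, mt-Nd5 7942, mt-Atp8 1915 and mt-Nd6 547. No window was shared in mt-Cytb, mt-Nd1, mt-Nd6 or mt-Atp8.

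**Figure D1:**
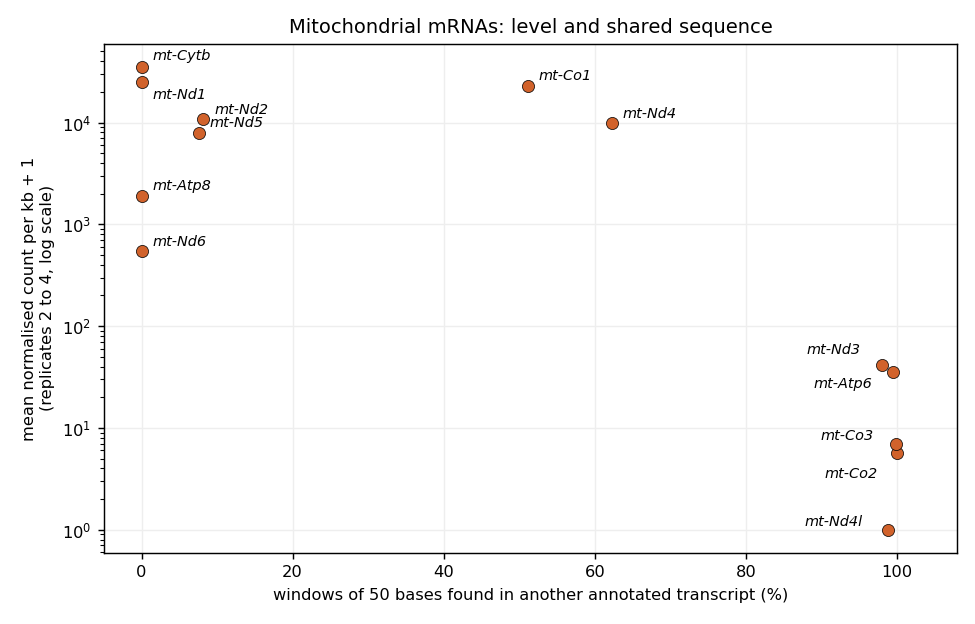
Each point is a mitochondrial mRNA, with the percentage of its 50-base windows found in another annotated transcript on the x axis and its mean normalised count per kb plus 1 on a log y axis, over the 6 libraries of replicates 2 to 4. The 5 mRNAs past 97% lie below 50 normalised counts per kb and the other 8 lie above 500.

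The copies themselves received few reads. Gm13340, a copy of part of mt-Co1, had the most, 19.5 to 104 normalised counts. Gm13341, which shares windows with mt-Co2, had 4.18 to 23.2, and the other 11 copies with a row in the tables had at most 6.96 in any library. Below the minimum of 10 stood mt-Co2 with 0 to 11.3 normalised counts, mt-Co3 with 0 to 15.3 and mt-Nd4l with 0 in every library, where 3 reads would correspond to 1.62 to 5.22 normalised counts. Only annotated transcripts were searched, not the genome. mt-Atp6 and mt-Nd3 remained members on fewer than 100 normalised counts in each library, and counts from neighbouring genes cannot be told apart where mt-Atp8 overlaps mt-Atp6, mt-Nd4l overlaps mt-Nd4 or mt-Nd5 overlaps mt-Nd6 on the other strand. The mRNAs of complexes IV and V encoded in mitochondria are therefore represented in practice by mt-Co1 and mt-Atp8. In the nuclear set, 43 of 78 members shared no window, and 5 shared more than 50%: Atp5g2 with 87.4%, Atp5l with 68.5%, Atp5o with 63.0%, Cox7c with 53.0% and Atp5h with 50.5%.

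Promoter sequences were read for 64 of the 78 nuclear members, which have 70 promoters of 300 bases in the RefSeq table (GRCm38.p6), from 250 bases before to 50 bases after the annotated start. The NRF1 motif, GCGCA and GCGC with any base between them on either strand, lay in 25.7% of member promoters and 4.6% of all 32851 promoters. The ETS motif CCGGAAG lay in 21.4% against 8.86%, and the YY1 motif AAGATGGC in 15.7% against 2.75%. For each motif the promoter of the first gene, in the order of p-values below, is printed with the motif in capitals: Ndufa5 at chr6:24527477-24527776 on the minus strand, Ndufb7 at chr8:83566508-83566807 on the plus strand and Ndufb8 at chr19:44555393-44555692 on the minus strand. All 3 encode accessory subunits of complex I.
Ndufa5: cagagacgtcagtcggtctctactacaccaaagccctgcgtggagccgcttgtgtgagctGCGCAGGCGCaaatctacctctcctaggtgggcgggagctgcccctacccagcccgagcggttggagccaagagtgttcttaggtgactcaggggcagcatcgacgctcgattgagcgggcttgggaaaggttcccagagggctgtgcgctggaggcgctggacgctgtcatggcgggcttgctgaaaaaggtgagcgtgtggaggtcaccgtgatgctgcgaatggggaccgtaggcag
Ndufb7: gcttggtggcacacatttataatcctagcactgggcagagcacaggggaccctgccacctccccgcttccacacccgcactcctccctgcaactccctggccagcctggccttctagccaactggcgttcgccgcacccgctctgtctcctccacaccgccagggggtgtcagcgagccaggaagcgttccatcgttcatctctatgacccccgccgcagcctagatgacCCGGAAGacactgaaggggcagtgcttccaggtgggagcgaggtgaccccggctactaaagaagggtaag
Ndufb8: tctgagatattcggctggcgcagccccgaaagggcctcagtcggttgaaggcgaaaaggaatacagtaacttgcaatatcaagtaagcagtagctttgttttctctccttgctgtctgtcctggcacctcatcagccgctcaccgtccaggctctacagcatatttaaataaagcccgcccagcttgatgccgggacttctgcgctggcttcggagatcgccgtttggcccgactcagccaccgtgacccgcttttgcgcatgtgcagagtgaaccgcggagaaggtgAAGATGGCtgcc

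Changes with treatment were set beside the motifs. The median log2 fold change at 5 h was 0.37 for the 36 members with at least 1 of the motifs and 0.42 for the 28 with none. By motif, the medians with and without it were 0.28 and 0.43 for NRF1, 0.49 and 0.38 for ETS, and 0.38 and 0.41 for YY1. These are descriptions with no test.

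The first question was whether micrograft treatment changed the nuclear set at 5 h in replicates 2 to 4, the only time with replicates. No nuclear member passed an adjusted p of 0.05 in either direction in limma, although 70 of 78 had a fitted log2 fold change above 0 and the median was 0.40. With the 5 h pair of replicate 1 added and the table as a batch, the median in edgeR was 0.024, with 0 members called in either direction. In limma on replicates 2 to 4, 0.97% of all 13096 genes tested were called higher and 0.267% lower. Of these genes 48.4% had a fold change above 0, and the median was -0.02. An unadjusted p under 0.05 was reached by 26 nuclear members, all higher with treatment, against 23.1% of all genes in either direction and 11.9% higher. DESeq2 on the reads recovered from the table called 5 nuclear members higher and 0 lower, where 6.52% and 4.43% of all genes were called, and edgeR called 0. The share of all genes called is not given here for this edgeR fit or the one with replicate 1 added. Their counts of 0 are therefore not read as results about the members. Without AMG-treated 5h replicate 3, limma called 39 nuclear members higher and 0 lower, with 8.75% and 8.05% of all genes called.

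The replicate numbers paired the libraries, and this changed the count. With the replicate number as a block, limma called 44 nuclear members higher and 0 lower, where 17.9% of all genes were called higher and 19.3% lower. edgeR with the block called 45 higher and 0 lower, where 18.4% and 18.6% of all genes were called. The median ratio within a pair of libraries was 0.45 in replicate 2, 0.15 in replicate 3 and 0.54 in replicate 4, on the log2 scale. It was above 0 in 67, 66 and 73 of 78 members, against 48.2%, 49.4% and 48.2% of all genes. In 27 members all 3 treated values lay above all 3 untreated values, as in 15.1% of all genes, and in Ndufs1 alone all 3 lay below, as in 13.6%.

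**Figure D2:**
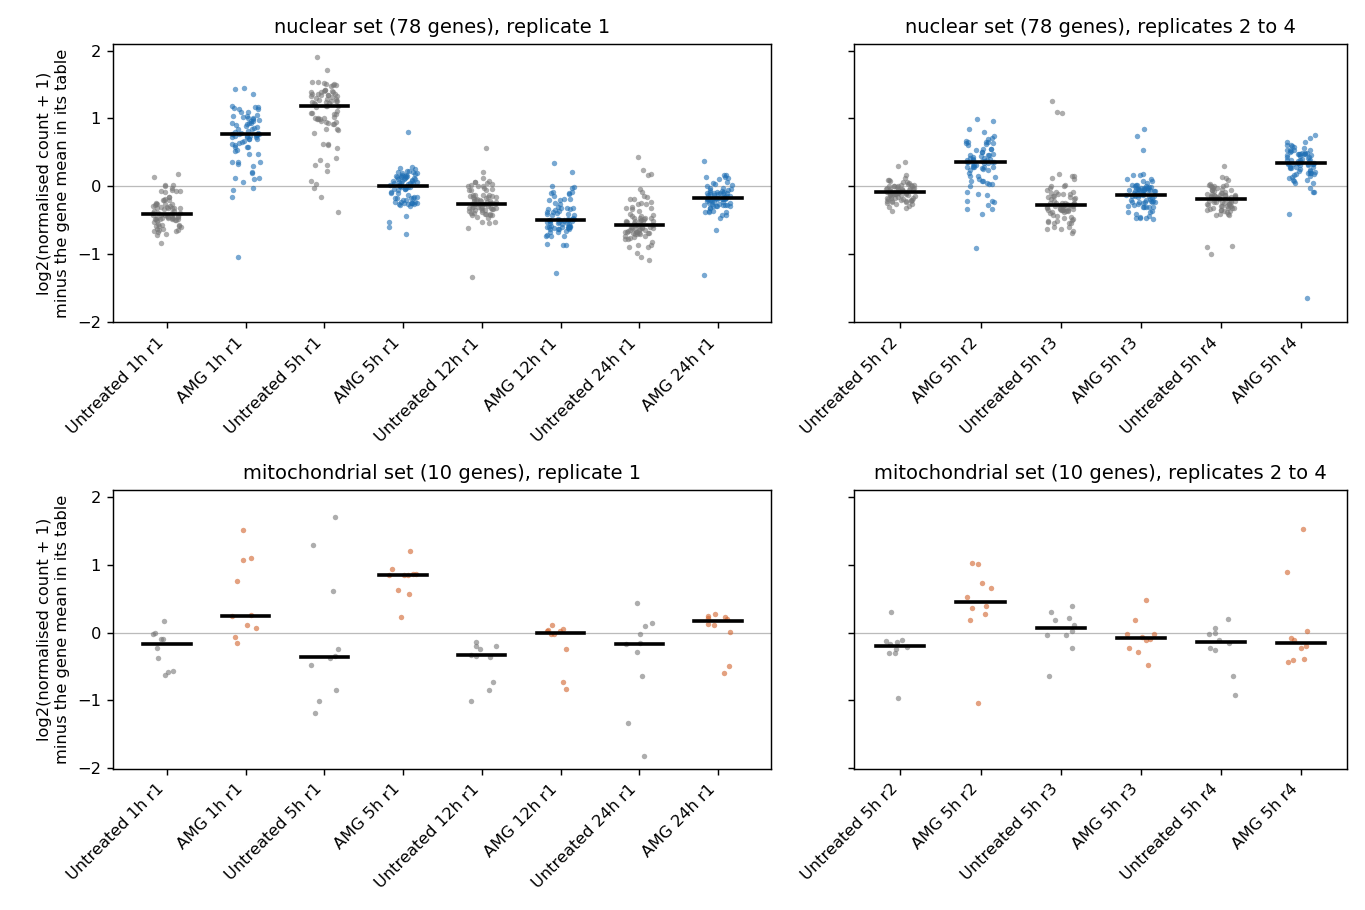
Each point is a gene in a library, with its log2(normalised count + 1) minus its mean over the libraries of its table on the y axis, for the nuclear set above and the mitochondrial set below. Grey points are Untreated and coloured points AMG-treated libraries, r stands for replicate, and black bars are medians. In replicate 1 the nuclear medians of AMG-treated at 1 h (0.77) and Untreated at 5 h (1.19) lie above those of the other 6 libraries.

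The size of the change varied with transcript length, and the nuclear set is short. Its median transcript length was 671 bases, against 2159 bases for tested genes, taking the median over a gene's annotated coding transcripts. The 58 members under 1000 bases had a median log2 fold change of 0.44 and the 20 longer ones 0.19. Genes outside both sets had medians of 0.17 under 1000 bases, 0.09 at 1000 to 2000 bases and -0.15 from there on. Spearman's rho between fold change and length was -0.51 over the 78 members and -0.31 over 12851 other genes; genes within the same libraries are not independent replicates, so no p is given. Ribosomal protein genes, also short, had a median of 0.49 with 81 of 81 above 0.

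Removing a smooth trend on length from each library lowered the median of the nuclear set, and the amount depended on the length used. With the median transcript length the nuclear median fell to 0.22, with 66 of 78 above 0 (49.2% of all genes), and the block fit called 27 members higher and 2 lower (18.3% and 16.9% of all genes). Median lengths include short annotated isoforms, such as 651 bases for Ndufs1 and 533 for Uqcrc1. With the longest principal transcript instead, where these were 2661 and 1653 bases, the nuclear median was 0.03 with 45 of 78 above 0. The block fit then called 7 members higher and 2 lower, where 17.5% and 15.5% of all genes were called. The rho between fold change and this length was -0.55 in the nuclear set and -0.39 in other genes. Whether length-dependent recovery of RNA or a response of these genes moved the values was not tested.

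**Figure D3:**
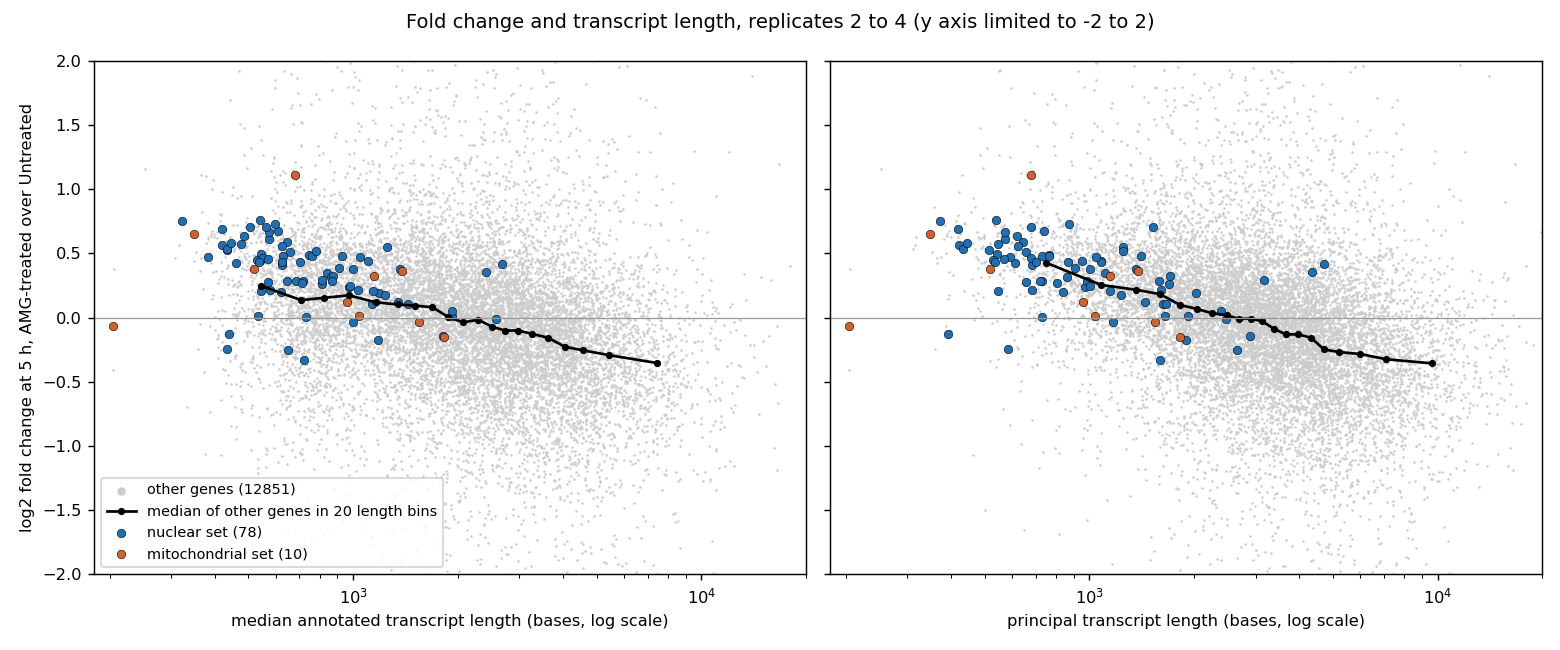
Each point is a gene, with its length on a log x axis (median annotated transcript left, principal transcript right) and its fitted log2 fold change at 5 h in replicates 2 to 4 on the y axis. Blue points are the 78 nuclear members, orange points the 10 mitochondrial members, grey points 12851 other genes, and the black line joins their medians in 20 length bins, with the y axis limited to -2 to 2. The line is above 0 at the short end and below 0 at the long end of both panels, and on principal length the nuclear members lie closer to it.

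The 7 members that the block fit called higher after the principal length correction were Ndufa5, Ndufb2, Sdhc, Uqcrq, Cox6c, Atp5d and Atp5g1, and the 2 called lower were Atp5c1 and Cox6b2. For 3 of them the principal transcript was longer than the median of 3003 bases over tested genes, with 4715 bases in Atp5g1, 4371 in Ndufb2 and 3171 in Sdhc, against median lengths of 2676, 2413 and 815. In Uqcrq it was 1521 bases against 504. Sdhc was called with this length only, its limma adjusted p with the block being 0.0521 on deposited values, 0.284 on median length and 0.0310 on principal length. Corrected log2 fold changes ran from 0.27 for Atp5d to 0.60 for Atp5g1, and were -0.31 for Atp5c1 and -0.71 for Cox6b2. These members, and the extremes named for each complex below, were chosen after their values were seen. Of the members named below with a block call on deposited values, only Ndufa5, Uqcrq, Cox6c and Atp5g1 kept it after the principal length correction.

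Complex I, which accepts electrons from NADH, had a nuclear median of 0.41 with 35 of 36 members above 0. Ndufa5, an accessory subunit at 6:24518666-24528013, had 553, 444 and 463 normalised counts in Untreated replicates 2, 3 and 4, and 981, 610 and 865 in AMG-treated. All treated values lay above all untreated ones, with treated replicate 3 the closest. Its log2 fold change was 0.73 (SE 0.21, n = 3 per group), with a limma adjusted p of 0.117, and 0.0025 with the block. The membrane-arm subunit Ndufb8 had 911, 886 and 899 normalised counts in Untreated and 1308, 1049 and 1381 in AMG-treated libraries. The groups did not overlap, and the limma log2 fold change was 0.46 (SE 0.14, adjusted p = 0.129, block 0.0098). With the principal length correction it was 0.035 (limma adjusted p with the block 0.764).

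The core subunit Ndufs1, which carries iron-sulfur clusters, went the other way. It had 1776, 1837 and 1822 normalised counts in Untreated and 1310, 1710 and 1567 in AMG-treated libraries, without overlap. Its log2 fold change in limma was -0.25 (SE 0.13, adjusted p = 0.293, block 0.0711). With the median length correction and the block its adjusted p was 0.0109, and with the principal length it narrowly missed the threshold. Its exons overlap those of Eef1b2 and Ino80dos on the other strand. Ndufv1, which binds NADH, had a log2 fold change of 0.11 in limma (SE 0.12, adjusted p = 0.601), with 1554, 1589 and 1614 normalised counts in Untreated and 1655, 1591 and 1900 in AMG-treated libraries, which overlapped.

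Further complex I members among the smallest p-values followed the pattern of Ndufa5. Ndufb7, Ndufb10 and Ndufa13, the last a subunit also known as GRIM-19, had log2 fold changes of 0.56, 0.48 and 0.55 without overlap. In limma their adjusted p-values were 0.143 to 0.145, and with the block 0.0097, 0.0134 and 0.0124. Treated replicate 3 had the smallest pair ratio in each, between 0.10 and 0.17.

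Complex II, which links the tricarboxylic acid cycle to the chain, had a median of 0.19. On the deposited values none of its 4 members was called with or without the block. The block fit called 17.9% of all genes higher and 19.3% lower. The catalytic flavoprotein Sdha had 3968, 3566 and 3972 normalised counts in Untreated and 3143, 3515 and 3778 in AMG-treated libraries, which overlapped. Its limma log2 fold change was -0.14 (SE 0.12, adjusted p = 0.505). The iron-sulfur subunit Sdhb had a log2 fold change of 0.21 (SE 0.18, limma adjusted p = 0.515). Its groups overlapped, with 1135 to 1389 normalised counts in Untreated and 1166 to 1742 in AMG-treated libraries.

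Complex III, which passes electrons to cytochrome c, had a median of 0.48. The block fit called 6 of 8 members higher, where 17.9% of all genes were called higher. The Rieske protein gene Uqcrfs1 had 1151, 955 and 1117 normalised counts in Untreated and 1573, 1166 and 1484 in AMG-treated libraries, without overlap. Its limma log2 fold change was 0.38 (SE 0.16, adjusted p = 0.209, block 0.0128). The core subunit Uqcrc1 had a log2 fold change of 0.01 (SE 0.15, limma adjusted p = 0.966), and that of its partner Uqcrc2 was -0.17. The small subunit Uqcrq had the largest value of the complex, 0.71.

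Complex IV, cytochrome c oxidase, had the highest nuclear median, 0.49. The block fit called 10 of 13 members higher, where 17.9% of all genes were called higher. Cox7a2l, the supercomplex factor at 17:83501918-83517330, had the smallest p of the set. It had 2072, 2175 and 1973 normalised counts in Untreated and 3057, 2605 and 2812 in AMG-treated libraries, without overlap. The limma log2 fold change was 0.44 (SE 0.11, adjusted p = 0.105, block 0.0071).

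The intermembrane subunit gene Cox6b1 had 3369, 2679 and 3178 normalised counts in Untreated and 5540, 3511 and 5516 in AMG-treated libraries. All treated values were higher, treated replicate 3 by the least. The limma log2 fold change was 0.63 (SE 0.21, adjusted p = 0.148, block 0.0020). Cox6c, Cox7a2 and Cox5a had log2 fold changes of 0.68, 0.51 and 0.59 without overlap, with limma adjusted p-values of 0.142 to 0.150 and block values of 0.0046, 0.0057 and 0.0075. Cox4i1, the general form of subunit 4, had 0.49 and its groups overlapped (limma adjusted p = 0.262, block 0.0067). Cox7c had the largest log2 fold change of the nuclear set, 0.76, and its groups overlapped (SE 0.36, limma adjusted p = 0.254, block 0.0098). With the principal length correction it was 0.27 (limma adjusted p with the block 0.123).

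The members of complex IV that the block fit did not call were tissue isoforms. Cox4i2, an isoform known from lung and responsive to low oxygen, had 39.6, 90.5 and 20.6 normalised counts in Untreated and 33.1, 71.3 and 31.6 in AMG-treated libraries. Cox7a1, the heart and muscle form, had 6.49 to 32.0 in Untreated and 6.36 to 18.9 in AMG-treated, and Cox6b2, the testis form, 63.3 to 256 and 37.3 to 214. Their log2 fold changes were 0.002, -0.12 and -0.24, their groups overlapped, and replicate 3 held the highest value of all 3 genes in both groups. Of 12 skeletal muscle markers, 5 had at most 3 reads in every library, and the list summed to 163 to 423 CPM in Untreated and 95.0 to 310 in AMG-treated libraries of replicates 2 to 4, and their part in these values was not tested. Cox6a2, the muscle form of subunit 6A, stayed below the minimum with 0.820 to 5.65 normalised counts.

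Complex V, ATP synthase, had a median of 0.28. The block fit called 7 of 17 members higher, where 17.9% of all genes were called higher. The core subunits Atp5a1 and Atp5b stood near 0. Atp5a1 had 9848, 11444 and 10606 normalised counts in Untreated and 8700, 11813 and 11298 in AMG-treated libraries, with a limma log2 fold change of -0.01 (SE 0.16, adjusted p = 0.968). Atp5b had 16515 to 18736 in Untreated and 16388 to 20589 in AMG-treated libraries, with 0.01 (SE 0.15, limma adjusted p = 0.968). Both sets of values overlapped. Atp5g1, 1 of the genes for the rotating c subunit, had 1058, 987 and 1061 normalised counts in Untreated and 1457, 1195 and 1519 in AMG-treated, without overlap. Its limma log2 fold change was 0.42 (SE 0.13, adjusted p = 0.143, block 0.0103). The factor gene Atp5s had the lowest value of the nuclear set, -0.33, and the short subunit gene Atp5k the highest of this complex, 0.75.

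The mitochondrial set showed no common direction in replicates 2 to 4. None of its 10 members was called in limma with or without the block. Of all genes, limma called 0.97% higher and 0.267% lower, and with the block 17.9% and 19.3%. No member reached an unadjusted p under 0.05, against 23.1% of all genes. DESeq2 and edgeR also called none, and for edgeR without the block the share of all genes is not given here. The median log2 fold change was 0.22 with 7 of 10 above 0 (0.41 in edgeR with replicate 1 added), and in every member the groups overlapped. With the median length correction this median was 0.06, with 5 of 10 above 0. With the principal length correction it was -0.16, with 4 of 10 above 0. For the 6 mRNAs with a mean of at least 1000 normalised counts the median was 0.07 on deposited values and -0.21 on principal length. The pairs disagreed: the median ratio was 0.65 in replicate 2, -0.21 in replicate 3 and -0.08 in replicate 4. Only 1 of 10 members had a ratio above 0 in replicate 3, against 9 of 10 in replicate 2.

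The complex I core gene mt-Nd4 had 11079, 12782 and 11043 normalised counts in Untreated replicates 2, 3 and 4 and 21792, 12303 and 12418 in AMG-treated. Treated replicate 2 stood apart from the other 5 libraries. The limma log2 fold change was 0.36 (SE 0.24, adjusted p = 0.395). In mt-Cytb, the complex III subunit, the values were 31861, 38330 and 35003 against 61751, 37493 and 36253, again with treated replicate 2 the highest (0.32, SE 0.24, limma adjusted p = 0.447). In mt-Co1, the catalytic subunit of complex IV, they were 32245, 40133 and 34903 against 45258, 34750 and 26576 (-0.04, SE 0.23, limma adjusted p = 0.941). Here treated replicate 2 was the highest and treated replicate 4 the lowest.

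The complex I genes mt-Nd1, mt-Nd2 and mt-Nd5 had log2 fold changes of 0.12, 0.01 and -0.15, with ratios above 0 only in replicate 2. mt-Nd6, from the light strand, had 246, 227 and 226 normalised counts in Untreated and 541, 191 and 271 in AMG-treated libraries (0.38, SE 0.36, limma adjusted p = 0.556). mt-Atp8 had 331, 416 and 443 against 503, 315 and 337, with a log2 fold change of -0.07. With the principal length correction and the block, mt-Atp8 was called lower (-0.74, limma adjusted p = 0.0177), the only mitochondrial call among the fits made. At 204 bases it was the shortest member. Of the low members, mt-Atp6 had 9.90, 23.7 and 10.3 normalised counts in Untreated and 42.0, 17.2 and 38.4 in AMG-treated libraries (1.12, SE 0.54, limma adjusted p = 0.267), and mt-Nd3 6.96 to 14.3 against 5.09 to 35.0.

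In replicate 1, with 1 library per treatment and time and therefore no test, the nuclear set moved up at 1 h and down at 5 h. The median log2 ratios of AMG-treated to Untreated at 1, 5, 12 and 24 h were 1.18, -1.17, -0.21 and 0.36. A ratio above 0 was seen in 74, 2, 4 and 72 of 78 members, against 47.0%, 49.8%, 48.9% and 51.6% of all genes. At 1 h, 64 of 78 members lay above 0.5 and 1 below -0.5, against 25.6% and 28.6% of 13498 genes. At 5 h, 0 lay above 0.5 and 70 below -0.5, against 28.7% and 28.5% of genes. At 12 h 1 lay above and 3 below (14.1% and 16.1% of genes), and at 24 h 22 lay above and 2 below (15.8% and 17.7%). The member above at 12 h was the pseudogene Atp5l-ps2, with 2.93 normalised counts in Untreated and 7.62 in AMG-treated. In these libraries 3 reads would correspond to 2.20 and 2.86 normalised counts.

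The 5 h direction in replicate 1 was thus opposite to the positive medians of replicates 2, 3 and 4. Cox6b1 had 3501, 12485, 3637 and 2968 normalised counts at 1, 5, 12 and 24 h in Untreated, and 10388, 5267, 3292 and 3628 in AMG-treated libraries. Untreated at 5 h and AMG-treated at 1 h were high and the other 6 libraries lay between 2968 and 5267. Ndufa5 followed with 1811 at 5 h in Untreated and 1478 at 1 h in AMG-treated, against 463 to 831 in the other 6. Atp5a1, in contrast, had 9951 to 12527 in all 8 libraries, and Sdha 3362 to 4467.

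The same libraries stood apart for other short transcripts. Reads in the nuclear set were 1.61% of all reads in genes in Untreated at 5 h and 1.21% in AMG-treated at 1 h of replicate 1, against 0.694 to 0.930% in the other 12 libraries. Ribosomal protein genes took 7.003% and 5.10% there, against 2.27 to 3.47% elsewhere. These 2 libraries had 13818438 and 13889352 reads, the fewest of the first table. Other genes under 1000 bases had median ratios of 0.46, -0.50, -0.09 and 0.16 over these times, the signs of the nuclear set at each time. After the principal length correction the nuclear medians were 0.24, -0.23, -0.06 and 0.11, so the signs held and the sizes fell. Treatment and library cannot be told apart in replicate 1.

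The mitochondrial set did not follow the nuclear set at 5 h in replicate 1. Its median log2 ratios were 0.37, 1.07, 0.26 and 0.25 in order of time. All 6 mRNAs with a mean of at least 1000 normalised counts were higher in AMG-treated at 5 h, by 0.91 to 2.02 on the log2 scale. mt-Nd5 had 19583, 7660, 15191 and 19100 normalised counts at 1, 5, 12 and 24 h in Untreated and 16507, 31113, 17969 and 20341 in AMG-treated. Untreated at 5 h was the lowest and AMG-treated at 5 h the highest of the 8 libraries.

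mt-Co1 had the same extremes, 21828 and 79783, with 39350 to 52099 in the other 6. mt-Cytb had 37935 in Untreated and 88751 in AMG-treated at 5 h, and mt-Nd1 31769 and 59839. The short mt-Nd6 went the other way at 5 h, with 720 in Untreated and 507 in AMG-treated, and mt-Atp8 had 547 and 759. Correcting for length did not reduce this value, which became 1.54 on median length and 1.96 on principal length, with 10 of 10 members above 0 in both.

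**Figure D4:**
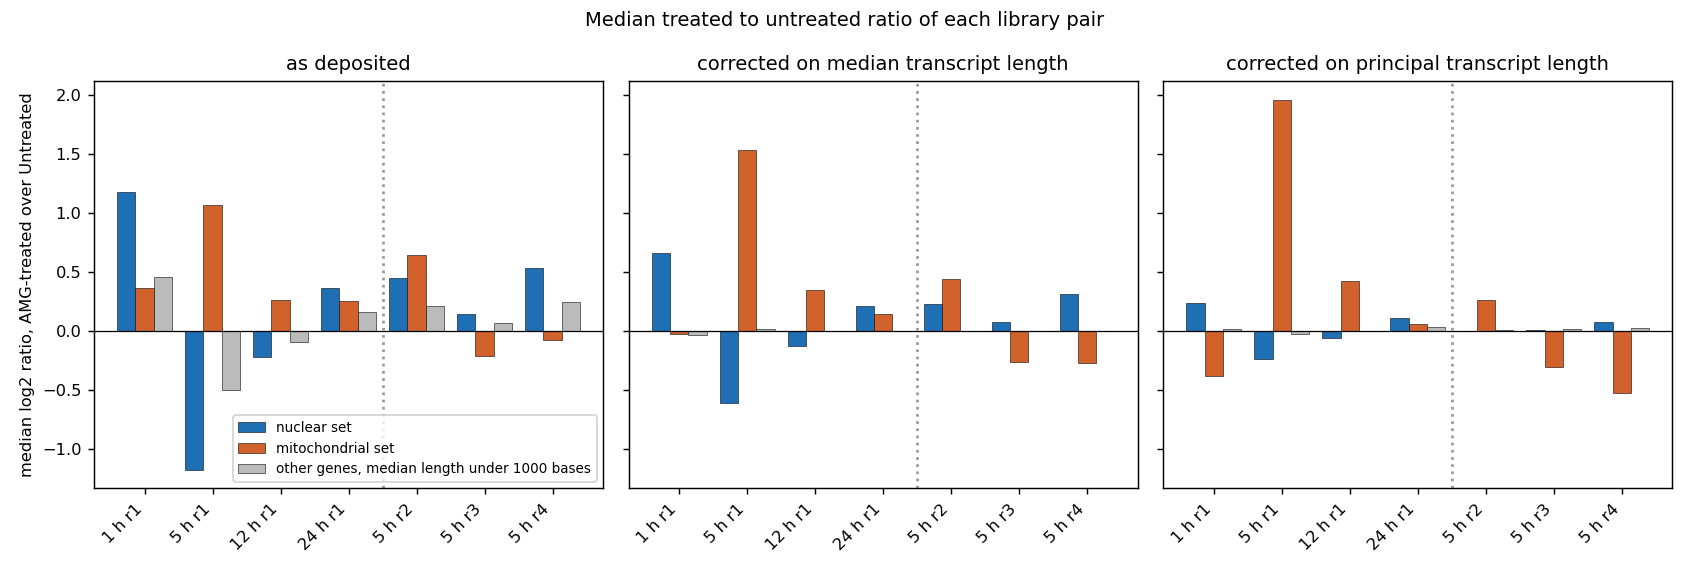
Bars are median log2 ratios of AMG-treated to Untreated normalised counts in each pair of libraries, as deposited (left), corrected on median transcript length (middle) and corrected on principal transcript length (right), with replicate 1 left of the dotted line and r standing for replicate. Blue bars are the nuclear set, orange bars the mitochondrial set and grey bars other genes under 1000 bases. The correction brings the nuclear bars towards 0, while the mitochondrial bar of replicate 1 at 5 h grows from 1.07 to 1.96.

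Set against each other in a library, mitochondrial mRNA reads per nuclear-set read were lowest in Untreated 5h replicate 1, at 0.333, and highest in AMG-treated 5h replicate 1, at 1.76. In replicates 2, 3 and 4 the ratio was 0.874, 1.20 and 0.996 in Untreated and 1.14, 0.993 and 0.643 in AMG-treated, higher with treatment in replicate 2 and lower in replicates 3 and 4. Mitochondrial mRNAs took 0.536 to 1.49% of reads over the 14 libraries, both extremes at 5 h of replicate 1. The libraries were taken to be poly(A)-selected and counted on unique alignments. The shares held few reads of mitochondrial rRNA and of the 5 mRNAs with more than 97% of windows shared. Why these reads were few was not tested.

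Assembly factors build the complexes without staying in them. In limma at 5 h, 0 of 14 complex I, 0 of 8 complex II and III, 0 of 19 complex IV and 0 of 4 complex V assembly genes were called, and their medians were 0.09, 0.22, 0.17 and 0.09. An unadjusted p under 0.05 was reached by 1, 1, 1 and 0 of them, against 23.1% of all genes. With the block, 5 of these 45 genes were higher and 3 lower, where 17.9% and 19.3% of all genes were called. Sco2, a copper chaperone for cytochrome c oxidase, had 113, 139 and 117 normalised counts in Untreated and 215, 199 and 255 in AMG-treated, without overlap. Its limma log2 fold change was 0.85 (SE 0.20, adjusted p = 0.0865, block 0.0066). Tmem126b, a complex I assembly factor, was opposite, with 324, 395 and 334 against 177, 267 and 210 (-0.70, SE 0.20, limma adjusted p = 0.121, block 0.0053).

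Of the electron carriers and the subunits that the symbols missed, all 7 tested had a log2 fold change above 0. Their median was 0.43, and 0.26 with the median length correction. In limma 0 were called, and 2 had an unadjusted p under 0.05, against 23.1% of all genes. With the block 5 were higher, as were 17.9% of all genes. Cycs, cytochrome c, had 631, 622 and 546 normalised counts in Untreated and 1060, 741 and 863 in AMG-treated, without overlap (0.55, SE 0.17, limma adjusted p = 0.128, block 0.0084). Mitochondrial ribosomal protein genes, which translate the mitochondrial mRNAs, had a median of 0.34 with 75 of 76 above 0, against 48.4% of all genes. Limma called 0 of them, where 0.97% of all genes were called higher and 0.267% lower. An unadjusted p under 0.05 was reached by 22, against 23.1% of all genes. With the block 36 of these 76 genes were called higher, where 17.9% of all genes were. After the principal length correction their median was 0.12 with 56 above 0, and 22 were called higher with the block, where 17.5% of all genes were.

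Genes for upkeep of mitochondrial DNA and RNA had a median of 0.01, with 0 of 17 called, 3 with an unadjusted p under 0.05 and 3 higher with the block, against 23.1% and 17.9% of all genes. Tfam, the packaging and transcription factor of mitochondrial DNA, had 379, 479 and 434 normalised counts in Untreated and 635, 599 and 486 in AMG-treated, without overlap (0.41, SE 0.17, limma adjusted p = 0.207, block 0.0422). Slirp, which stabilises mitochondrial mRNAs, had 0.48 (SE 0.18, limma adjusted p = 0.179, block 0.0077). Of 6 regulators of biogenesis tested 0 were called, and 2 had an unadjusted p under 0.05, against 23.1% of all genes. With the block Esrra was higher (0.44, limma adjusted p with the block 0.0153), as were 17.9% of all genes. Gabpa, which binds the ETS motif, was lower (-0.34, limma adjusted p with the block 0.0336), as were 19.3%. After the median length correction, the limma adjusted p with the block was 0.166 for Tfam, 0.0599 for Slirp, 0.109 for Esrra and 0.148 for Gabpa. The tricarboxylic acid cycle list had a median of -0.10, with 0 of 22 called, 0 with an unadjusted p under 0.05, and 3 higher and 4 lower with the block, where 17.9% and 19.3% of all genes were called.

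In the list of mitochondrial stress and uncoupling genes 1 of 12 was called, Sod2, the manganese superoxide dismutase of the matrix. Of all genes, limma called 0.97% higher and 0.267% lower. An unadjusted p under 0.05 was reached by 4 of the 12, against 23.1% of all genes. Sod2 had 838, 720 and 863 normalised counts in Untreated and 2863, 1563 and 2842 in AMG-treated libraries, without overlap. The limma log2 fold change was 1.54 (SE 0.25, adjusted p = 0.0438, block 7.567e-05). The adjusted p was 0.0791 without the limma trend, 0.0528 with upper quartile rescaling, 0.0523 with the principal length correction and 0.0906 to 0.202 when any library other than AMG-treated 5h replicate 3 was left out, and 0.00349 without that one. In replicate 1 its log2 ratio was 1.54, 0.78, 1.51 and 1.93 at 1, 5, 12 and 24 h, above 0 at each time. With the block the list had 6 higher and 1 lower, where 17.9% and 19.3% of all genes were called. Hspe1, the matrix chaperonin partner, had 0.48 (SE 0.11, limma adjusted p = 0.0865, block 0.0049) without overlap.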

How the data were processed

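Poly(A)-selected stranded libraries were read as single ends of 50 bases and aligned by the authors to mm10 with TopHat2 2.0.13. Reads were kept where unique, counted per gene with HTSeq 0.5.3p3 and scaled with DESeq. This follows the labels and the methods of a paper that re-used these data. Its sequencing methods describe its own libraries and were taken to hold here. Which annotation release was counted, and with what strand setting, is not given in the sources used here. The deposited values are normalised counts, a signal of gene counts divided by a size factor, in 2 tables. Whole reads were recovered from them (100% of values within 0.1 of a whole number), 12545537 to 34696529 per library. Intervals and floors cover counting error only.

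Genes with a mean of at least 10 were tested on log2(normalised count + 1), which understates the change of low genes, with limma 3.58.1 (trend, Benjamini-Hochberg over all genes tested, R 4.3.3). A call is an adjusted p under 0.05. edgeR 4.0.16 and DESeq2 1.42.0 were run on the recovered reads. Other alternatives were pseudocounts of 0.1 and 10, filters, rescaling, a lowess length correction (span 0.3), the replicate block, and leaving out libraries. The correction on the longest principal transcript was chosen after seeing the data. Deviations from group means correlated at 0.65, 0.76 and 0.70 between same-numbered libraries and at -0.59 to 0.12 between others, so numbers were taken to pair libraries. The labels do not tie replicates to separate animals, so p-values may measure technical spread. Lengths, 50-base windows and coordinates came from GENCODE M21 (GRCm38). The scripts were tested on simulated data.

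Members and lists were chosen with earlier results of these data known. Named genes were the mitochondrial members, the 10 nuclear members of smallest p, 10 core subunits, 4 tissue isoforms and the 3 genes of smallest p in each list.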

Additional observations from a re-analysis of the deposited data

Results flagged for a closer look

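Among the 4 libraries of Untreated cells at 5 h, replicate 1 stood far from the other 3 in 4 measures. The nuclear set took 1.61% of its reads, against 0.694 to 0.755%. Ribosomal protein genes took 7.003%, against 2.27 to 2.82%. Mitochondrial rRNA took 0.0590%, against 0.0194 to 0.0223%, and mt-Nd6 0.00318%, against 0.0012 to 0.00137%. In all, 12 groups of values were searched, and chance passes this criterion in about 1 of 20. The cause was not tested.

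In replicate 1 the median log2 ratio of the nuclear set changed sign between 1 and 5 h, by -2.35, and between 12 and 24 h, by 0.58. Neither difference was tested, since each time has 1 library per treatment.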

How the results depend on the processing

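Of 14 set-level results under the alternatives, none turned direction as a called value, but the counts and medians of the nuclear set moved. On principal length the mitochondrial median turned negative at 5 h in replicates 2 to 4 and at 1 h in replicate 1. Against 0 in limma, the count of nuclear members called higher was 44 with the replicate block, 45 in edgeR with the block, 27 with the length correction and block, 7 with the principal length correction and block, 5 in DESeq2, and 0 to 39 over fits leaving out 1 library each, the 39 without AMG-treated 5h replicate 3. The count called lower was 2 with either length correction and the block, and 1 mitochondrial member was lower on principal length with the block. The pairing changed no count of the mitochondrial set on deposited values. The nuclear median was 0.0292 with the principal length correction, with or without the block, 0.024 in edgeR on replicates 1 to 4, and 0.30 to 0.53 leaving out libraries. The mitochondrial median was 0.06 with the median length correction, -0.16 with the principal length correction and -0.07 to 0.32 leaving out libraries. In replicate 1 the nuclear medians with the length correction were 0.66 at 1 h and -0.61 at 5 h, and on principal length 0.24, -0.23 and 0.11 at 1, 5 and 24 h. The mitochondrial medians were -0.03 and 1.54 at 1 and 5 h with the length correction, and -0.38 and 1.96 on principal length. By construction the corrections remove what length carries, and why the 2 lengths differ was not tested.

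Of 60 named genes, 16 turned sign under some alternative, and none of these was called in limma without the block. Of them Slirp was called with the block (limma adjusted p = 0.0077). On principal length with the block, mt-Atp8 (limma adjusted p = 0.0177) and Cox6b2 (limma adjusted p = 0.0455) were called. With the length correction, alike with the block, values were -0.0316 for mt-Nd1, -0.1348 for mt-Nd2, -0.2017 for Uqcrc1, 0.0453 for Atp5a1, -0.0007 for Atp5b and -0.17 for Cox4i2. On principal length, alike with the block, they were -0.21 for mt-Nd1, -0.29 for mt-Nd2, -0.12 for mt-Nd6, -0.0481 for Ndufv1, -0.0706 for Sdhb, -0.14 for Uqcrc1, -0.0926 for Atp5b, -0.4024 for Cox4i2 and -0.081 for Tmem242. In edgeR on replicates 1 to 4 they were 0.0922 for mt-Atp8, 0.45 for mt-Co1, 0.37 for mt-Nd5, -0.11 for Sdhb, -0.12 for Uqcrc1, -0.0828 for Atp5b, -0.28 for Cox4i2, -0.12 for Tmem242 and -0.0266 for Slirp. With upper quartile rescaling they were -0.0368 for mt-Nd2, -0.034 for Uqcrc1, -0.0352 for Atp5b and -0.045 for Cox4i2. Cox4i2 was -0.0209 with a pseudocount of 10, -0.11 in edgeR, -0.0171 in edgeR with the block and -0.12 in DESeq2, and Atp5a1 was 0.0048 in edgeR. Leaving out 1 library each gave -0.27 to 0.0626 for mt-Atp8, -0.23 to 0.16 for mt-Co1, -0.11 to 0.26 for mt-Nd1, -0.13 to 0.23 for mt-Nd2, -0.28 to 0.0069 for mt-Nd5, -0.0337 to 0.71 for mt-Nd6, -0.0673 to 0.13 for Uqcrc1, -0.10 to 0.12 for Atp5a1, -0.0836 to 0.081 for Atp5b, -0.50 to 0.55 for Cox4i2, -0.59 to 0.48 for Cox7a1 and -0.75 to 0.52 for Cox6b2.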
